A study of Mus musculus with 6 samples.

Results

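The genes described here are 8 transcription factors and repressors that carry the rhythm of the circadian clock to other genes, out of 30777 genes in the deposited table. They are the PAR bZIP genes Dbp, Tef and Hlf, their competitor Nfil3, the REV-ERB genes Nr1d1 and Nr1d2, the opposing nuclear receptor Rora, and Ciart. They were chosen by name, as a set proposed after earlier results of the same comparison were known, so their differences between the groups are given as a description and support nothing. All 8 were found in the table, and all 8 were among the 20101 genes expressed highly enough to be tested. The colon of BALB/c mice was sequenced as 6 RNA libraries. The 3 libraries of the 5-Fu group came from mice given 5-fluorouracil, a pyrimidine analogue used in chemotherapy that injures dividing cells, those of the gut lining among them. The 3 libraries of the 5-Fu+BBR group came from mice given 5-fluorouracil and berberine, a plant alkaloid, so both groups share the chemotherapy and there is no untreated colon. The labels give no dose, no day of treatment, no age and no time of day at which the colon was taken, and nothing states that each library is a separate animal. The p-values therefore cover the spread among these 6 libraries, which may be technical.

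The mammalian clock is a loop in which CLOCK and BMAL1 (encoded by Arntl) switch on genes through E-box sequences, among them their own repressors of the PER and CRY families. The same E-boxes drive Dbp, Tef, Hlf, Nr1d1, Nr1d2 and Ciart. REV-ERB proteins then repress, and ROR proteins activate, genes that carry a ROR element (RORE), such as Arntl, Cry1 and Nfil3, so that these genes peak at another time of day. DBP, TEF and HLF activate genes through D-box sequences, and NFIL3 binds the same sequences as a repressor. In the gut, rhythms of this kind are known for nutrient transport, cell renewal and the response to microbes.

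Levels are given as FPKM, which corrects for the length of the transcript and the depth of the library and so allows different genes to be compared. Differences between groups are log2 fold changes of the scaled counts, 5-Fu+BBR minus 5-Fu, ± SE from edgeR's quasi-likelihood test over all genes tested. Of the 8 genes, 7 had a positive and 1 a negative log2 fold change. Dbp and Nr1d1 were past an adjusted p of 0.05, both higher in 5-Fu+BBR, against 0.0597% of all genes tested called higher and 0.0746% called in either direction. At that threshold 0 of the 8 were lower, against 0.0149% of all genes. The groups did not overlap in scaled counts for 6 genes that were higher, against 12.3% of all genes tested, and for 1 gene that was lower (Nfil3), against 9.68%; in either direction 21.9% of all genes did not overlap. All 8 had an unadjusted p under 0.05, against 15.6% of all genes. Since the set was proposed from this comparison, nothing is read from these shares.

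**Figure D1:**
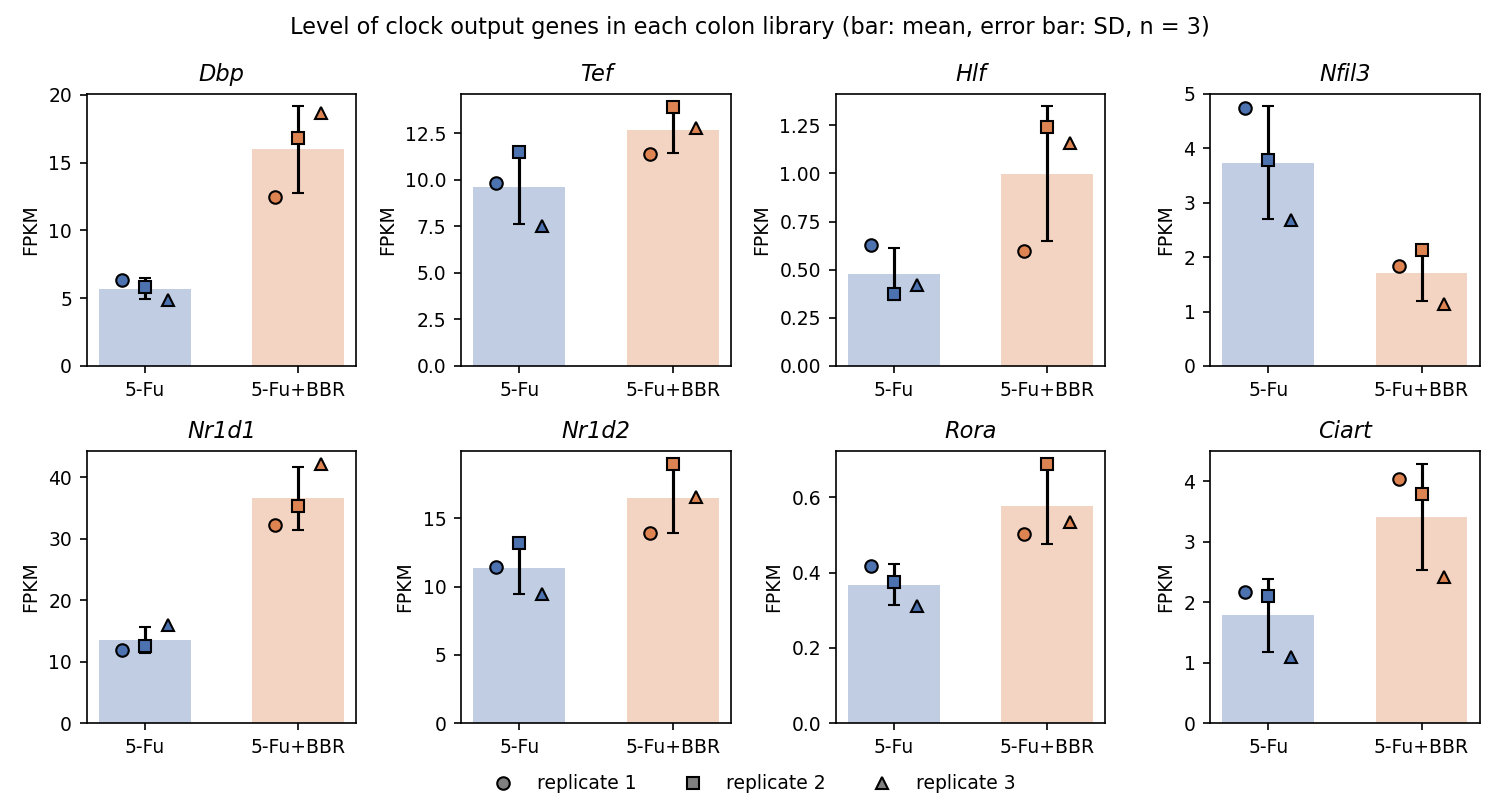
FPKM of each of the 8 genes in the 6 libraries. Each point is a library, with the shape of the symbol giving the replicate, bars are means of 3 libraries and error bars are SD. Each vertical axis starts at 0 and has its own scale. Nr1d1 was between 32.2 and 42.2 FPKM in 5-Fu+BBR and between 12 and 16 FPKM in 5-Fu, whereas Nfil3 was lower in all 3 libraries of 5-Fu+BBR than in any of 5-Fu.

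The PAR bZIP genes differed in size of change and in how well the groups were separated. Dbp (ENSMUSG00000059824, chromosome 7, 45705088 to 45710203, plus strand, GRCm38) encodes D site albumin promoter binding protein, which the clock drives directly. It was at 6.36, 5.85 and 4.86 FPKM in 5-Fu replicates 1 to 3. In 5-Fu+BBR replicates 1 to 3 it was at 12.5, 16.8 and 18.6 FPKM. The lowest library with berberine was 2.04 times the highest without it in scaled counts. The log2 fold change was 1.48 ± 0.15 (adjusted p = 0.0228 by edgeR), the 8th smallest p of all genes tested. Without 5-Fu replicate 1, 5-Fu+BBR replicate 2 or 5-Fu+BBR replicate 3 the adjusted p of Dbp was 0.0838, 0.219 and 0.0501, with log2 fold changes of 1.56, 1.46 and 1.36.

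Tef (ENSMUSG00000022389, chromosome 15, 81802421 to 81826863, plus strand) encodes thyrotroph embryonic factor. It was at 9.82, 11.5 and 7.51 FPKM in 5-Fu and at 11.4, 13.9 and 12.8 FPKM in 5-Fu+BBR. In FPKM the highest library of 5-Fu lay just above the lowest of 5-Fu+BBR, whereas in scaled counts the groups did not overlap and the nearest libraries differed 1.09-fold. Its log2 fold change was 0.40 ± 0.13 (adjusted p = 0.215 by edgeR), the smallest in size of the 8. Hlf (ENSMUSG00000003949, chromosome 11, 90336536 to 90390895, minus strand), hepatic leukemia factor, was at 0.630, 0.376 and 0.421 FPKM in 5-Fu and at 0.599, 1.24 and 1.16 FPKM in 5-Fu+BBR. Replicate 1 of 5-Fu+BBR therefore lay within the range of 5-Fu, and Hlf was the 1 gene of the 8 whose groups overlapped in scaled counts. Its log2 fold change was 1.05 ± 0.33 (adjusted p = 0.205 by edgeR). With 5-Fu+BBR replicate 1 as the only library of its group, the log2 fold change of Hlf was 0.37, against 1.17 for Dbp and 0.29 for Tef.

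Nfil3 (ENSMUSG00000056749, chromosome 13, 52967209 to 52981073, minus strand) encodes a bZIP repressor that competes with the PAR bZIP proteins at D-boxes and is also needed for the development of innate lymphoid cells. It was at 4.74, 3.79 and 2.68 FPKM in 5-Fu and at 1.84, 2.13 and 1.13 FPKM in 5-Fu+BBR. It was the only gene of the 8 with a negative difference (log2 fold change -1.13 ± 0.30, adjusted p = 0.16 by edgeR). The ratio of Dbp to Nfil3, activator over competitor, was 1.34, 1.55 and 1.81 in FPKM in 5-Fu. It was 6.77, 7.86 and 16.4 in 5-Fu+BBR. Because Dbp was higher and Nfil3 lower without overlap, the ratio could only separate the groups, and it adds nothing to their differences.

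Sequences around the RefSeq gene starts show which of the clock's known motifs lie near them. RefSeq promoter windows (GRCm38.p6), from 250 bases before to 50 after a gene start, were found for all 8 genes, 9 windows in all because Tef has 2 starts. They were searched on both strands for the E-box CACGTG, the E-box variant CACGTT, the D-boxes TTATGTAA and TTACGTAA, the RORE core TAGGTCA and the cAMP response element TGACGTCA, none of which overlapped another match. The windows of Tef, Hlf, Nfil3, Nr1d1 and Ciart held a match and are printed here in part, 5′ to 3′ on the strand of the gene, with the matches in capitals. The stretches lie at chr15:81802534-81802563 (plus strand) and chr15:81811264-81811413 (plus strand) for the Tef starts, chr11:90390918-90391067 (minus strand) for Hlf, chr13:52981033-52981062 (minus strand) for Nfil3, chr11:98775378-98775527 (minus strand) for Nr1d1 and chr3:95882252-95882378 (minus strand) for Ciart.
Tef, upstream start: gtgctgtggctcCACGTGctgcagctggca
Tef, downstream start: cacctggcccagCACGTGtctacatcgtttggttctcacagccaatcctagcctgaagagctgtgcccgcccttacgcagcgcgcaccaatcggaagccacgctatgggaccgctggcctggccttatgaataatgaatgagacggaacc
Hlf: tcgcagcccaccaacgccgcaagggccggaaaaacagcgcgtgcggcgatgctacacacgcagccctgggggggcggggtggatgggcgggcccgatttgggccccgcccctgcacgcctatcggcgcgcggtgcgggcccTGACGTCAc
Nfil3: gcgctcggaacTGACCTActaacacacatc
Nr1d1: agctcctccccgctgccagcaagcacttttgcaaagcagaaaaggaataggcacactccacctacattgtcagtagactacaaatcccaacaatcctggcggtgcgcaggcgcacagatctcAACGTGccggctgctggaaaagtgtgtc
Ciart: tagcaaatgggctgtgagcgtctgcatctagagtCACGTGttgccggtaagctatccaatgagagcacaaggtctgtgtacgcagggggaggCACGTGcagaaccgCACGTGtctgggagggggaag
Ciart held the E-box 3 times, at -116, -58 and -44 bases from its start, as did 0.0883% of all 32851 windows. Each Tef window held it once, at -127 and -138, and 7.15% of all windows held it at least once. Nr1d1 had the E-box variant on the opposite strand, AACGTG as printed, at -28 (4.68% of all windows). Nfil3 had the RORE core on the opposite strand, TGACCTA as printed, at -12 (2.61% of all windows). Hlf had the cAMP response element, the binding sequence of CREB, at -9 (1.79% of all windows). The windows of Dbp, Nr1d2 and Rora held none of these letters, and none of the 9 held a D-box. By the gene coordinates given for each gene, both Tef stretches and the Nfil3 stretch lie within the gene. Those of Hlf, Nr1d1 and Ciart lie upstream of it. A match is a run of letters in a short window, and binding was not measured.

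**Figure D2:**
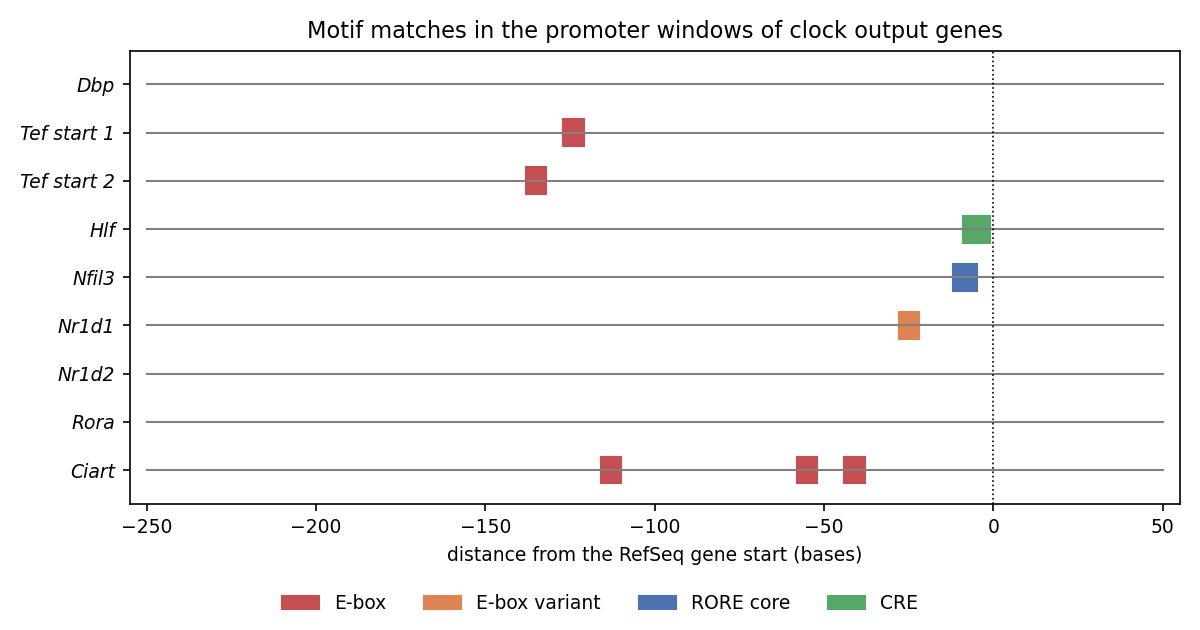
Motif matches in the 9 RefSeq promoter windows of the 8 genes. The horizontal axis is the distance from the gene start in bases, each grey line is a window and each coloured block a match on either strand. The 3 E-boxes of Ciart lie between -116 and the start, and the RORE core of Nfil3 lies at -12.

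Nr1d1 (ENSMUSG00000020889, chromosome 11, 98767932 to 98775333, minus strand) encodes REV-ERBα, the repressor that links the clock to metabolism and inflammation. It was at 12, 12.6 and 16 FPKM in 5-Fu replicates 1 to 3. In 5-Fu+BBR replicates 1 to 3 it was at 32.2, 35.3 and 42.2 FPKM. The highest library without berberine and the lowest with it differed 1.94-fold in scaled counts. Its log2 fold change was 1.42 ± 0.17 (adjusted p = 0.0495 by edgeR), just under the threshold. Without 5-Fu replicate 1 the adjusted p was 0.183, and without 5-Fu+BBR replicate 1, 2 or 3 it was 0.0519, 0.279 and 0.09, with log2 fold changes between 1.31 and 1.48 in these 4 fits. Nr1d1 lies tail to tail with Thra, the thyroid hormone receptor alpha gene on the plus strand. In GENCODE M21 their 3′ ends overlap by 1075 bases, whereas by the deposited coordinates no other gene overlapped Nr1d1. No source used here says whether the authors counted by strand. Thra was at 8.02, 7 and 7.84 FPKM in 5-Fu and 6.6, 6.85 and 8.73 FPKM in 5-Fu+BBR. Its log2 fold change was -0.05 ± 0.15 (adjusted p = 0.894 by edgeR). The groups overlapped for Thra and not for Nr1d1, and whether reads were shared was not tested.

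Nr1d2 (ENSMUSG00000021775, chromosome 14, 18204054 to 18239127, minus strand) encodes REV-ERBβ, which acts on the same elements as REV-ERBα. It was at 11.4, 13.2 and 9.46 FPKM in 5-Fu and at 13.9, 18.9 and 16.6 FPKM in 5-Fu+BBR. The groups did not overlap, but the nearest libraries differed 1.17-fold in scaled counts and the gene did not pass (log2 fold change 0.54 ± 0.13, adjusted p = 0.137 by edgeR). Nr1d1 was 1.05, 0.958 and 1.69 times Nr1d2 in FPKM in 5-Fu and 2.31, 1.86 and 2.55 times Nr1d2 in 5-Fu+BBR. This ratio follows from the differences already given for both genes and adds nothing to them. Rora (ENSMUSG00000032238, chromosome 9, 68653786 to 69388246, plus strand) encodes RORα, which activates the elements that REV-ERB represses and also marks type 2 innate lymphoid cells. It was at 0.418, 0.374 and 0.312 FPKM in 5-Fu and at 0.503, 0.689 and 0.535 FPKM in 5-Fu+BBR, without overlap. Its log2 fold change was 0.64 ± 0.20 (adjusted p = 0.208 by edgeR). Markers of innate lymphoid cells, which use both Nfil3 and Rora, summed to 13.4 to 17.7 FPKM in 5-Fu and 16.5 to 23.0 FPKM in 5-Fu+BBR. Most of these sums was Areg, at 12.1 FPKM on average in 5-Fu and 15.3 FPKM in 5-Fu+BBR, with overlapping groups. Of the markers, 5 of 6 tested were positive, as were 10186 of all 20101 genes, and Gata3 was negative (log2 fold change -0.29 ± 0.47). Of the 6 markers tested, 0 passed by edgeR or limma-voom, and DESeq2 called Klrg1 higher (6.10% of all genes called). Klrg1 and Il17rb were 2 of 6 higher at an unadjusted p under 0.05 by edgeR (9.48% of all genes). Klrg1 was at 0 in 5-Fu replicates 1 and 2 and Il22 at 0 in 5-Fu+BBR replicates 2 and 3. Their part in these differences was not tested.

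Ciart (ENSMUSG00000038550, chromosome 3, 95878503 to 95882231, minus strand), also called CHRONO, encodes a repressor that binds BMAL1. It was at 2.17, 2.1 and 1.09 FPKM in 5-Fu and at 4.04, 3.78 and 2.42 FPKM in 5-Fu+BBR. Replicate 3 was the lowest library of each group, and the groups were separated by 1.11-fold between the nearest libraries in scaled counts (log2 fold change 0.94 ± 0.30, adjusted p = 0.216 by edgeR). An antisense gene, C920021L13Rik, covers the whole of Ciart at 0.223 FPKM on average in 5-Fu and 0.258 FPKM in 5-Fu+BBR. Dbp shares 737 bases with the antisense end of Sphk2, a sphingosine kinase gene, which was at 13 and 14.5 FPKM on average in these groups (adjusted p = 0.814 by edgeR). Tef shares 193 bases with the predicted antisense gene Gm17597, at 0.0994 and 0.179 FPKM on average.

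Ordered by level in 5-Fu, Nr1d1 stood at 13.5 ± 2.15 FPKM (SD, n = 3), Nr1d2 at 11.3 ± 1.86, Tef at 9.61 ± 2.01, Dbp at 5.69 ± 0.761, Nfil3 at 3.74 ± 1.03, Ciart at 1.79 ± 0.604, Hlf at 0.476 ± 0.135 and Rora at 0.368 ± 0.0532. Nr1d1 and Nr1d2, Nr1d2 and Tef, and Hlf and Rora overlapped between libraries, and the other neighbours did not. In 5-Fu+BBR the order was Nr1d1 at 36.6 ± 5.13 FPKM, Nr1d2 at 16.5 ± 2.52, Dbp at 16.0 ± 3.17, Tef at 12.7 ± 1.26, Ciart at 3.41 ± 0.874, Nfil3 at 1.70 ± 0.514, Hlf at 0.999 ± 0.349 and Rora at 0.575 ± 0.0995. Dbp thus stood above Tef and Ciart above Nfil3 with berberine, where the reverse held without it. Dbp overlapped both Nr1d2 and Tef in that group.

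The deviation of each library from the mean of its own group does not use the difference between groups. Dbp was highest in replicate 1 of 5-Fu (0.16 above the group mean on the log2 CPM scale) and lowest in replicate 1 of 5-Fu+BBR (0.28 below it, written -0.28). Nr1d1 was highest in replicate 3 of both groups, at 0.36 and 0.20, and Ciart was lowest in replicate 3 of both, at -0.52 and -0.47. Nr1d1 and Ciart therefore differed in opposite directions within each group. In 5-Fu+BBR, replicate 1 was the lowest library for Dbp, Tef, Hlf, Nr1d1, Nr1d2 and Rora, while for Ciart it was the highest. The SD within groups on the log2 CPM scale was 0.16 for Nr1d2, 0.17 for Tef, 0.18 for Rora, 0.21 for Dbp, 0.25 for Nr1d1, 0.42 for Nfil3, 0.44 for Ciart and 0.47 for Hlf, against a median of 0.28 over all genes tested.

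The 6 libraries also differed in markers of other cell types. In bulk tissue, fewer cells of a type and less RNA per cell cannot be told apart. Colon epithelium markers such as Krt8 and Epcam were present in all libraries, with 4 of 7 positive in log2 fold change and a summed level of 3691 to 4305 FPKM in 5-Fu and 3885 to 4205 FPKM in 5-Fu+BBR. Smooth muscle markers were positive for 6 of 6 and summed to 721 to 965 FPKM in 5-Fu and 1329 to 1612 FPKM in 5-Fu+BBR. Adipocyte markers were positive for 6 of 6, at 3.15 to 7.25 against 18.6 to 35.8 FPKM, with Lep at 0 in all 3 libraries of 5-Fu and Adipoq, Plin1 and Retn at 0 in 5-Fu replicates 1 and 3. T cell markers were positive for 7 of 7, at 9.15 to 12.9 against 15.3 to 22.4 FPKM. The neutrophil markers summed to 5.11 to 91.4 FPKM in 5-Fu and 0.929 to 22.4 FPKM in 5-Fu+BBR, with 4 of 5 negative, Cxcr2 at 0 in 5-Fu replicate 3 and Retnlg at 0 in 5-Fu+BBR replicates 2 and 3. By edgeR and by limma-voom 0 of the genes on these 5 lists passed an adjusted p of 0.05, while DESeq2, which called 6.10% of all genes tested, called 6 of the smooth muscle, 3 of the adipocyte and 3 of the T cell markers, all higher. At an unadjusted p under 0.05 edgeR had 6, 6 and 5 of these lists higher, 1 neutrophil marker lower and 0 epithelium markers, against 9.48% of all genes higher and 6.08% lower. Their part in the differences of the 8 genes was not tested.

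Kidney markers were positive for 8 of 8 tested (0 passed by edgeR or limma-voom, 7 higher at an unadjusted p under 0.05 against 9.48% of all genes, 6 by DESeq2 against 6.10%), and their sum was 11.7 to 13.5 FPKM in 5-Fu, 13.5 FPKM in 5-Fu+BBR replicate 1, and 150 and 143 FPKM in replicates 2 and 3. The leading marker Kap was at 9.45 to 11.6 FPKM in 5-Fu and at 11.5, 133 and 127 FPKM in 5-Fu+BBR. Cdh16 was at 0 in 5-Fu replicate 3. The library of 5-Fu+BBR with kidney markers near the level of 5-Fu had Dbp at 12.5 FPKM and Nr1d1 at 32.2 FPKM, above every library of 5-Fu, although it was the lowest library of its group for 6 of the 8 genes. With that library as the only one of its group, log2 fold changes were 1.28 for Nr1d1, 1.22 for Ciart, 0.49 for Rora, 0.34 for Nr1d2 and -0.97 for Nfil3. For Hlf the same library lay at the level of 5-Fu replicate 1, and the higher values were in the 2 libraries with high kidney markers. The log2 fold changes from that library rest on 1 library against the 3 of 5-Fu. The comparison by kidney markers within 5-Fu+BBR rests on 1 library against 2. The part of kidney markers in the differences of the 8 genes was not tested.

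**Figure D3:**
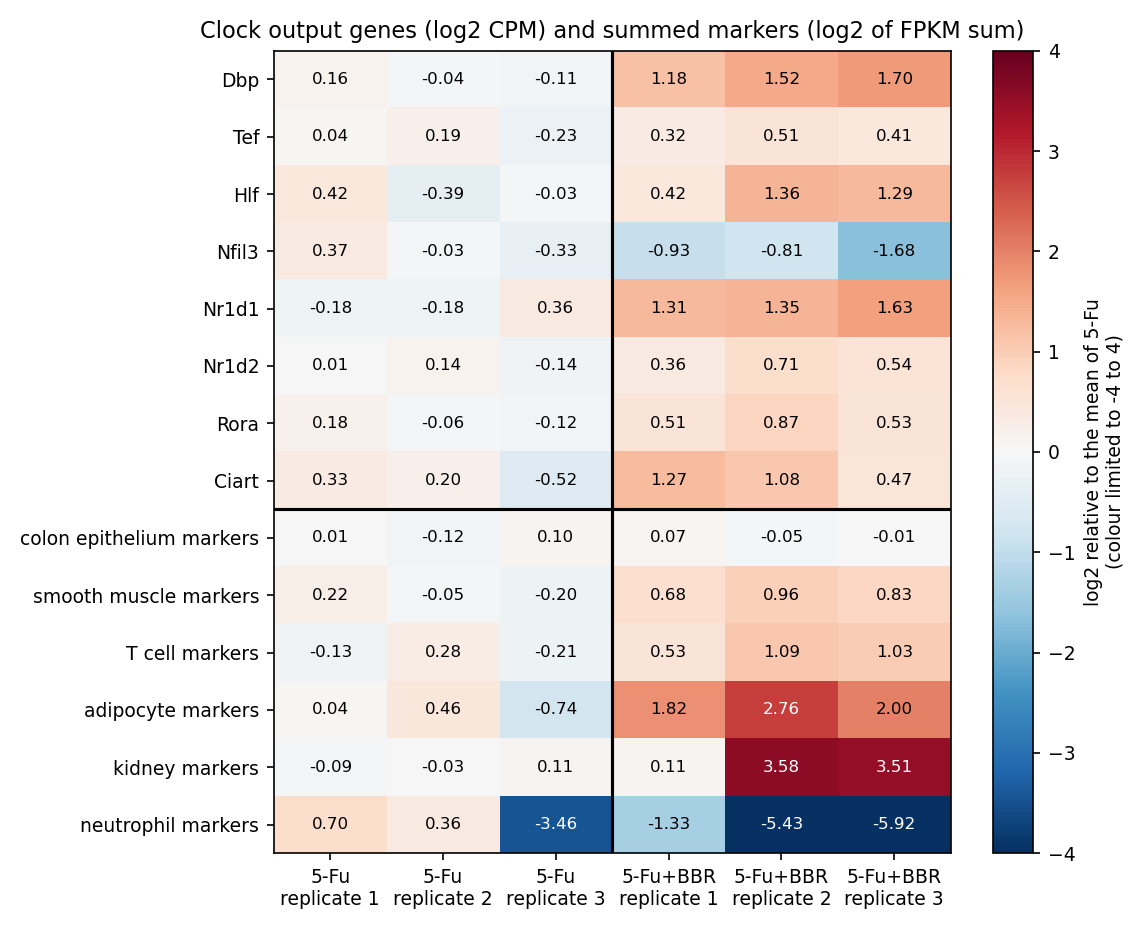
Level of the 8 genes (log2 CPM) and of summed cell type markers (log2 of the FPKM sum) in each library, relative to the mean of 5-Fu. Columns are the 6 libraries, and red is higher and blue lower, with the value printed in each cell. Dbp and Nr1d1 are above 1 in all 3 libraries of 5-Fu+BBR, and kidney markers are above 3 in replicates 2 and 3 of that group and at 0.11 in replicate 1.

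The core clock genes were compared in the same way, from a list of 11 activators and repressors chosen with earlier results known. Of them, 0 passed an adjusted p of 0.05 by edgeR, 5 had a positive and 6 a negative log2 fold change, and the median was -0.0032, beside 0.0051 over all genes tested. At an unadjusted p under 0.05, 1 was higher (9.48% of all genes) and 3 were lower (6.08% of all genes). DESeq2, which called 6.10% of all genes, called 3 of the 11, namely Bhlhe41 (higher), Cry1 and Clock (lower), and limma-voom called 0. Arntl, which encodes BMAL1, was at 2.7, 2.7 and 3.73 FPKM in 5-Fu and at 2, 1.89 and 2.09 FPKM in 5-Fu+BBR, without overlap (log2 fold change -0.63 ± 0.19, adjusted p = 0.199 by edgeR). Clock was at 8.68, 7.51 and 6.7 FPKM against 4.98, 5.86 and 6.19 FPKM, and the repressor Cry1 at 7.5, 6.57 and 8.08 FPKM against 4.94, 4.16 and 3.94 FPKM, also without overlap. Their log2 fold changes were -0.43 ± 0.12 and -0.77 ± 0.17 (adjusted p = 0.175 and 0.126 by edgeR).

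Bhlhe41, the repressor DEC2 that binds E-boxes, was at 0.335, 0.207 and 0.391 FPKM in 5-Fu and at 0.478, 1.18 and 1.24 FPKM in 5-Fu+BBR, without overlap (log2 fold change 1.59 ± 0.42, adjusted p = 0.16 by edgeR). As for Hlf, its higher values were in the 2 libraries with high kidney markers, and with 5-Fu+BBR replicate 1 alone the log2 fold change was 0.63 ± 0.52. The part of kidney markers in this difference was not tested either. The E-box repressors Per1 and Per2 were at 6.85 ± 0.857 and 6.95 ± 1.56 FPKM in 5-Fu and at 6.66 ± 0.658 and 7.12 ± 1.35 FPKM in 5-Fu+BBR (SD, n = 3), with overlapping groups. Cry2 was at 3.11 ± 0.636 against 3.12 ± 0.22 FPKM. The log2 fold change was -0.04 ± 0.12 for Per1 and 0.04 ± 0.19 for Per2, and the sign changed when single libraries were left out. Per3 was at 3.51, 3.75 and 2.18 FPKM in 5-Fu and at 4.09, 3.93 and 3.91 FPKM in 5-Fu+BBR, with a log2 fold change of 0.35 ± 0.16 (adjusted p = 0.351 by edgeR). The ratio of Nr1d1 to Arntl, repressor over its known target, was 4.45, 4.67 and 4.29 in FPKM in 5-Fu and 16.1, 18.7 and 20.2 in 5-Fu+BBR. Nr1d1 was higher and Arntl lower without overlap, so this separation was fixed by their differences.

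**Figure D4:**
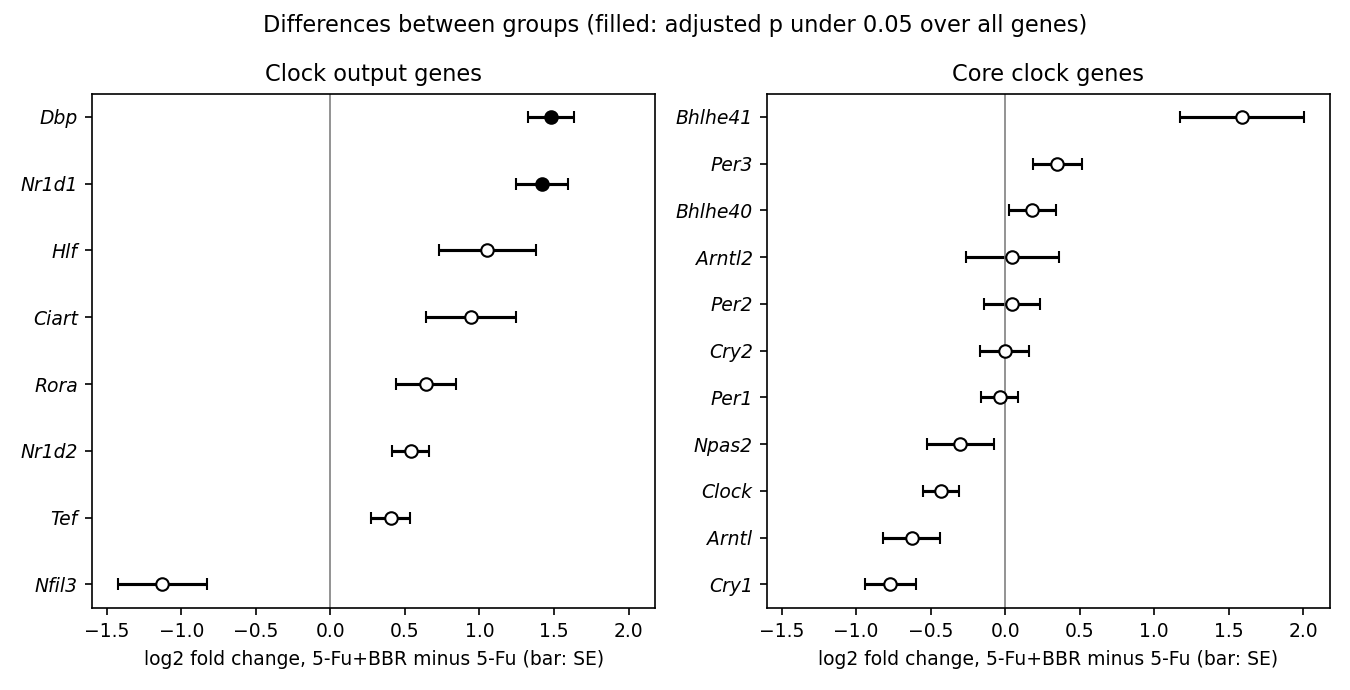
log2 fold changes, 5-Fu+BBR minus 5-Fu, of the 8 clock output genes and of 11 core clock genes, with SE as bars. Filled points, Dbp and Nr1d1, are past an adjusted p of 0.05 over all genes by edgeR. Dbp, at 1.48, and Nfil3, at -1.13, mark the ends among the output genes.

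Genes known as targets of these factors were listed with earlier results known. Of 10 genes known to be bound and regulated by REV-ERB or ROR, mostly in liver or cell lines, 9 were tested, 8 had a negative log2 fold change, 0 passed by edgeR, and 5 were lower at an unadjusted p under 0.05 (6.08% of all genes). The 5 were Cry1, Nfil3, Clock, Arntl and Insig2, of which Nfil3 is one of the 8 genes and Cry1, Clock and Arntl are the 3 core clock genes already counted as lower, so that only Insig2 adds to the counts given before. DESeq2 called 3 of the list, Cry1, Nfil3 and Clock, and limma-voom called 0. Insig2, a brake on sterol synthesis, was at 14 ± 1.46 FPKM in 5-Fu and 11.4 ± 1.16 FPKM in 5-Fu+BBR (SD, n = 3; log2 fold change -0.30 ± 0.12, adjusted p = 0.286 by edgeR). Its groups overlapped in scaled counts, though not in FPKM. The median of the list was -0.43.

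Of 8 genes known as PAR bZIP targets, mostly in liver, brain or rat intestine, 7 were tested, 2 had a positive and 5 a negative log2 fold change, and 0 passed by edgeR, DESeq2 or limma-voom. At an unadjusted p under 0.05, 0 were higher (9.48% of all genes) and 1 was lower (6.08% of all genes), which is no result about the list. That gene was Alas1, the rate-limiting enzyme of haem synthesis, at 24.1, 26 and 24 FPKM in 5-Fu and 21.2, 19.5 and 18.8 FPKM in 5-Fu+BBR, with a log2 fold change of -0.32 ± 0.11 (adjusted p = 0.244 by edgeR). Abcb1a, a drug efflux pump, was at 11.5, 8.54 and 28.5 FPKM against 24.5, 32.7 and 47.5 FPKM, with overlapping groups (log2 fold change 1.06 ± 0.54, adjusted p = 0.419 by edgeR). Pdxk, which makes the active form of vitamin B6, was at 3.19 ± 0.289 against 3.77 ± 0.463 FPKM (SD, n = 3). The median of the list was -0.10, and 2 of the 7 genes had the sign of Dbp, Tef and Hlf.

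Other genes of the machinery followed. Among 8 genes of clock protein turnover 0 passed by edgeR, with 1 higher and 1 lower at an unadjusted p under 0.05, near the shares of all genes (9.48% and 6.08%). DESeq2 called 1, Csnk1e, and limma-voom 0. The casein kinase gene Csnk1e was at 1.86, 2.18 and 1.72 FPKM in 5-Fu and 2.61, 2.87 and 2.55 FPKM in 5-Fu+BBR, with a log2 fold change of 0.47 ± 0.13 (adjusted p = 0.162 by edgeR). Csnk1d, its close relative, had a log2 fold change of -0.25 ± 0.11 (adjusted p = 0.306 by edgeR). Among the 6 genes of the corepressor complex that REV-ERB recruits, 0 passed by edgeR, DESeq2 or limma-voom and 0 had an unadjusted p under 0.05. The histone deacetylase gene Hdac3 was at 15.5 ± 1.24 against 13.8 ± 0.447 FPKM (SD, n = 3). Of 9 genes outside the set that are known to cycle in most mouse organs, 0 passed by edgeR, DESeq2 or limma-voom. Only Arntl had an unadjusted p under 0.05 by edgeR, against 15.6% of all genes. Arntl, Per1, Per2 and Per3 were already counted among the core clock genes and Usp2 among those of clock protein turnover. Usp2, a deubiquitinase of clock proteins, was at 2.68, 1.74 and 3.38 FPKM in 5-Fu and 3.07, 3.3 and 3.21 FPKM in 5-Fu+BBR. Lonrf3 was at 1.04 ± 0.257 against 0.678 ± 0.111 FPKM.

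The profile of each gene over the 6 libraries was compared with those of 11519 named genes whose mean reached 5 CPM. Predicted genes (Gm plus digits, or names ending in Rik) and genes without a name were left out. The measure was the root mean square difference of log2 CPM after each gene's own mean was subtracted. This measure includes the difference between the groups, so it is a description. The nearest to Dbp were Lyz1, a lysozyme gene, at 0.13, Cd74, the invariant chain of MHC class II, at 0.16, and Myo1f, a myosin of white blood cells, at 0.18, against a median of 0.80 over all genes compared. Reads of Lyz1 can be shared with its near copy Lyz2. Nr1d1 ranked 12th for Dbp, at 0.26. The nearest to Nr1d1 were Colq, the collagen tail of acetylcholinesterase, at 0.20, Plbd1, a phospholipase B-like gene, at 0.20, and Adgrg5, an adhesion receptor gene, at 0.21, and Dbp ranked 16th. The nearest to Nfil3 were the small GTPase gene Rac3 at 0.14, the semaphorin gene Sema6b at 0.20 and Ret, the receptor of glial cell line-derived neurotrophic factor, at 0.21.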

How the data were processed

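Mouse colon RNA was sequenced, with 3 libraries per group as the labels' titles give them. Per the labels' protocols, polyadenylated RNA was made into strand-marked libraries with molecular identifiers. The submitters' processing notes list, without saying what each did, the tools StringTie 1.3.4d, HISAT2 2.0.4, DESeq2, edgeR, UMI-tools and cutadapt 1.9 and the build GRCm38. The annotation and the use of strand or identifiers in counting are not given in the sources used here. FPKM and whole-number estimated counts were deposited by the authors. These estimated counts sum to between 53824752 and 63831168 per library, and how many counts a fragment is worth is not stated, so counts divided by 4 were an alternative.

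Counts were used as deposited, filtered with filterByExpr (20101 of 30777 genes kept), scaled with TMM and tested without covariates in R 4.3.3 by the quasi-likelihood test of edgeR 4.0.16 (robust, two-sided). P-values were adjusted over all genes tested by the Benjamini-Hochberg method. The coefficient of biological variation was 0.296. CPM are counts scaled to library size, and log2 CPM used a prior count of 2. No 2 libraries of a group agreed within sampling noise. The genes, the lists and the alternatives were chosen with earlier results of these data known. Named are the 8 genes, the genes of each list that pass or have the smallest p (up to 4), the 3 nearest profiles and leading markers. The alternatives used limma 3.58.1 and DESeq2 1.42.0 as well, and the steps were tested on simulated data. Some genes of the lists are counted but not reported here by name. Promoter windows are from RefSeq (GRCm38.p6). Figures were drawn with matplotlib 3.10.9.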

Additional observations from a re-analysis of the deposited data

How the results depend on the processing

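All 132 values of the 8 genes under the alternatives kept their sign, over 15 to 17 alternatives per gene, although Hlf and Rora were too low for the fits on FPKM. The count of the 8 genes past the threshold was 2. It was 1 with DESeq2 size factors (Dbp), 7 with DESeq2 (all but Tef; 1227 genes called in all, against 15), 1 with limma-trend on log2(FPKM + 1) (Nr1d1), 0 on log2(FPKM + 0.1), 0 with 5-Fu+BBR replicate 1 alone against 5-Fu, where a lone library is assumed to vary like the others, and between 0 and 2 when single libraries were left out. It stayed at 2 with no filter (77 genes called), a filter of 50 counts in 3 samples, limma-voom, edgeR's newer method, counts divided by 4 and an adjusted p of 0.1 (144 genes called). The count of core clock genes was 0, except for 3 with DESeq2. The cause was not tested.

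Replicate numbers are shared between the groups, and deviations of same-numbered libraries correlated at 0.058, 0.024 and 0.12. With 3 libraries per group, these correlations cannot decide whether the numbers pair the samples. With the number as a block, 2 of the 8 genes passed again (113 genes called, against 15 without it). Nr1d1 then had a log2 fold change of 1.43 ± 0.11 (adjusted p = 0.0148 by edgeR), against 1.42 ± 0.17 without the block. Not every sample correlated best with its own number, although replicate 3 of each group did.

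Core clock genes near 0 changed sign. Cry2 was at 0.013 with the replicate block, 0.010 with the filter of 50 counts, 0.021 with limma-voom, 0.011 and 0.017 on log2(FPKM + 1) and log2(FPKM + 0.1) and 0.0099 with counts divided by 4. Per1 was at 0.12 with 5-Fu+BBR replicate 1 alone. Leaving out single libraries gave -0.13 to 0.23 for Arntl2, -0.13 to 0.048 for Per1, -0.13 to 0.18 for Per2 and -0.11 to 0.16 for Cry2. Nfil3, Ciart, Hlf and Rora had 150 to 668 estimated counts per library, and with counts divided by 4 their SE were 0.29, 0.30, 0.32 and 0.20, against 0.30, 0.30, 0.33 and 0.20.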
